A study of Mus musculus with 52 samples.

Results

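The Notch receptors and signalling genes described here are 9 mouse genes, chosen by name and found by matching the Ensembl identifiers of the count table to gene symbols: the ligand Jag2, the receptors Notch1 and Notch2, the receptor protease Adam10, the nuclear genes Rbpj and Maml1, and the target genes Hes1, Dtx1 and Nrarp. All 9 matched, among 28786 identifiers. They were measured in 52 single bone marrow cells labelled primed HSCs (haematopoietic stem cells), taken from C57BL/6 mice aged 6 to 8 weeks of the genotype Cd4-cre;R26Tdtomato, in which Cre recombinase driven by Cd4 sequences can turn on a tdTomato reporter. Libraries were made by Smart-seq2, a plate method with 1 cell per well, full-length cDNA and no molecular identifiers. The labels give 1 group and no control, and they do not give the sort gate, the number of animals or what "primed" means. The cells therefore form 1 sample, no test was made between cells, and every interval below is over cells and covers counting error only, not differences between animals, whose number is unknown. Within a cell, PCR copies cannot be told from separate molecules, so a number of reads is not a number of molecules.

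Notch receptors are cut after a ligand on a neighbouring cell pulls on them, first by the ADAM10 protease at the cell surface and then by the gamma-secretase complex in the membrane. The freed intracellular part enters the nucleus, binds the DNA-binding protein RBPJ and recruits a Mastermind-like coactivator such as MAML1. Without it, RBPJ can hold the same genes down with corepressors. In blood, NOTCH1 is best known for committing progenitors to the T lineage in the thymus, and Hes1, Dtx1 and Nrarp are genes that respond to Notch in many tissues.

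Reads below are the authors' expected counts rounded to whole numbers, and CPM is a gene's reads scaled to a total of 1000000 in each cell. Of the 52 cells 49 were kept, those with 50000 reads or more, 1000 detected genes or more and no more than 20% of reads from mitochondrial genes. They held 85519 to 12446477 reads (median 2187579). Clustering without the genes of the Notch pathway gave 18 HSC-like cells, with 7 of 10 HSC markers and also 4 of 5 megakaryocyte markers higher than in the other cells, 29 erythroid-like cells, with 7 of 10 erythroid markers higher, and cells 9 and 34, which stood alone. Cell 9 had B cell genes (5 of 6 markers higher) and cell 34 had neutrophil and monocyte genes (4 of 7), and both stayed unnamed. The label of HSCs thus met the HSC markers in a minority of cells: an HSC marker was found on average in 64.4% of HSC-like and 18.97% of erythroid-like cells, and an erythroid marker in 61.1% and 73.8%. In the same order, the average shares were 3.47% and 4.31% for T cell, 30.6% and 21.8% for B cell, 34.9% and 16.3% for neutrophil and monocyte, 57.8% and 28.97% for megakaryocyte, 6.94% and 1.72% for mast cell and basophil, 32.4% and 29.3% for stromal and endothelial markers, and 11.1% and 10.2% for 20 genes of other organs, of which Mbp (40 of 49 cells) and Pax6 (34 cells) gave most. HSC-like cells were shallower, with a median of 1192448 reads against 3099607 in erythroid-like cells.

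Because the upstream sequence of a target is where RBPJ would be looked for, the 250 bases before the RefSeq start are shown for the receptor and the target whose values the account turns on, and for Rbpj, the 1 member whose window held the RBPJ core motif TGGGAA. The motif was searched on both strands (its reverse complement is TTCCCA), and capitals mark it. Sequences are from RefSeq on GRCm38.p6 and read 5′ to 3′ on the strand of the gene.
Notch1, chr2:26503823-26504072, minus strand: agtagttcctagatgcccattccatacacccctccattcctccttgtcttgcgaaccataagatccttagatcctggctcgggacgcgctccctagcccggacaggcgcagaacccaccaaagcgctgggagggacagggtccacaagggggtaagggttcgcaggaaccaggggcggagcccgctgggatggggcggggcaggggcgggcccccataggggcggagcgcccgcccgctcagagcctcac
Nrarp, chr2:25180508-25180757, plus strand: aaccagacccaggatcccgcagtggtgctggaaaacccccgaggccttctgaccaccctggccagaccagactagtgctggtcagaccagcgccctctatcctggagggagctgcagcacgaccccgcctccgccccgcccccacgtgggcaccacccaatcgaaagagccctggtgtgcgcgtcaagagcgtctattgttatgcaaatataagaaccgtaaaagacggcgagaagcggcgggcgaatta
Rbpj, chr5:53590096-53590345, plus strand: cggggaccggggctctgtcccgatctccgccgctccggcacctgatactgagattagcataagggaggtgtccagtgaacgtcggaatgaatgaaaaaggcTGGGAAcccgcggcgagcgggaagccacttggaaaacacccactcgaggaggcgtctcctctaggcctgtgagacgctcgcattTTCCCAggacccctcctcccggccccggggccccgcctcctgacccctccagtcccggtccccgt
The windows of Notch1 and Nrarp held no match, and the Rbpj window held 2. Of the 8 members with a window (Hes1 had none in the table), 1 held the motif, and 21.6% of all 32851 windows of this length did. A match is a run of letters and not a binding site, and no match says only that these letters are not in this window.

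Across the 49 cells the core of the pathway was unevenly present. The receptor Notch2, the protease Adam10 and Rbpj were each found in most cells, Notch1 and Nrarp in a minority, Maml1 in between, and Hes1, Dtx1 and Jag2 in almost none. A read was found in at least 50% of cells for 3 of the 9 members, against 24.4% of all 28786 genes and 46.3% of the 15134 genes with any read in these cells. At 10 CPM or more the count was also 3, against 33.8% of the 15134 genes. A cell held reads of 0 to 6 members (median 3). Cells 2, 20 and 52, all HSC-like, held 6 each.

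**Figure D1:**
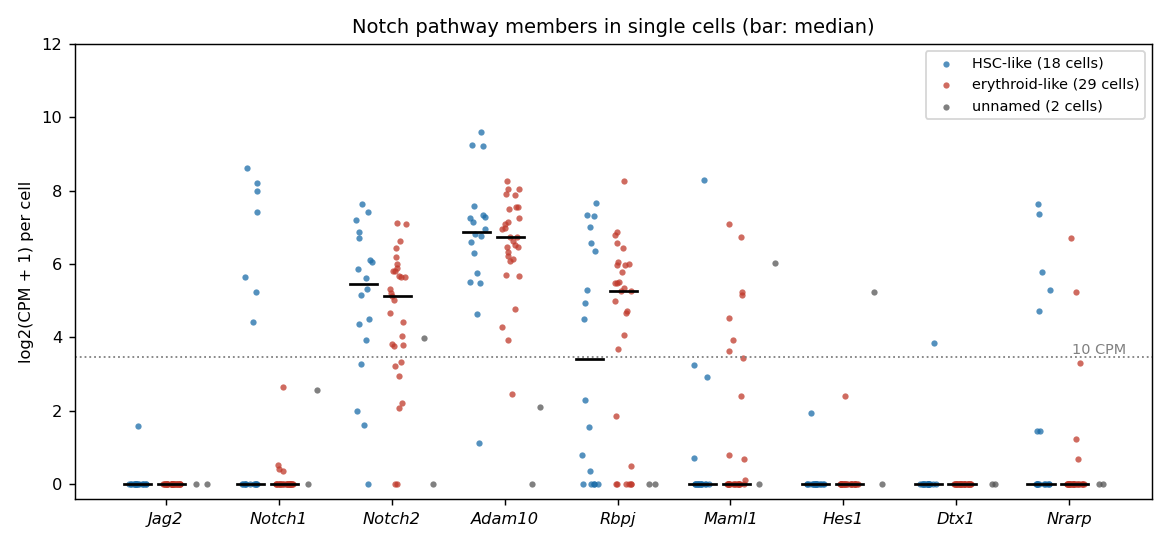
Each point is 1 of 49 cells and shows its level of a member as log2(CPM + 1), by class, with HSC-like cells left of erythroid-like cells, the unnamed cells in grey and black bars at the medians. Notch2 and Adam10 fill both classes, Notch1 lies above 10 CPM (dotted line) in 7 HSC-like cells and in no erythroid-like cell, and Hes1, Dtx1 and Jag2 lie at 0 in nearly every cell.

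Of the ligands, Jag2, which presents itself to Notch receptors on neighbouring cells (chromosome 12, 112907819 to 112929776, minus strand), had 15 reads in cell 2 (2.005 CPM) and none elsewhere. Cell 2 was the deepest HSC-like cell, with 7481542 reads. Dll4 had a read in 2 cells (4.08%, exact 95% interval 0.498 to 13.98), and Dll1, Dll3, Jag1, Dlk1 and Dlk2 in 0 of 49. A count of 0 thus allows a share of up to 6.12% of cells with a read, or 7.25% by the exact interval. Ligands on neighbouring marrow cells were not analysed here.

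Notch1 set a few cells apart from the rest (chromosome 2, 26457903 to 26516663, minus strand). Of 49 cells, 12 had a Notch1 read (24.5%, interval 13.3 to 38.9), and these were of 2 kinds. In 7 cells it stood at 395 CPM (cell 51), 293 CPM (cell 26), 255 CPM (cell 47), 171 CPM (cell 21), 49.02 CPM (cell 52), 36.8 CPM (cell 2) and 20.2 CPM (cell 38). These 7 were all HSC-like and held 2789 of the 2798 Notch1 reads. The other 5 cells, 8, 34, 35, 46 and 50, had 1 to 3 reads each, from 0.292 to 5.25 CPM, and 4 of them were erythroid-like. Between 5.25 and 20.2 CPM there was no cell. Such a gap was not particular to Notch1, as Nrarp had no cell between 8.83 and 25.4 CPM.

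By class, Notch1 was found in 7 of 18 HSC-like cells (38.9%, interval 17.3 to 64.3) and in 4 of 29 erythroid-like cells (13.8%, 3.89 to 31.7), a difference of 25.1 percentage points. A difference at least that large in the same direction was found for 3.15% of the 15134 genes with a read. At 10 CPM or more the share was 38.9% in HSC-like cells and 0% in erythroid-like cells. There 0 of 29 allows up to 10.3%, or 11.9% by the exact interval. It was the same with at least 5 reads, a mark chosen after the data were seen. How many of all genes differ this way at these 2 marks was not counted, so nothing further is read from the 0%. With k-means clusters in place of Ward's method, cells 2 and 38 fell in the erythroid-like class, and 10 CPM was reached in 5 of 14 HSC-like (35.7%) and 2 of 34 erythroid-like cells (5.88%), with means of 83.03 ± 136 and 1.86 ± 7.12 CPM. With every cell thinned to 85519 reads the shares were 38.9% and 3.45%. Without cells 9, 13, 23 and 34, which earlier results of these data set apart, they were 41.2% and 14.3%. Mean Notch1 was 67.7 ± 123 CPM in HSC-like cells (SD over 18 cells) and 0.217 ± 0.975 CPM in erythroid-like cells (SD over 29 cells, 6 reads in all), so the levels of the 2 classes overlapped only at or below 5.25 CPM, where 11 HSC-like cells had 0 reads.

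The 7 cells at 10 CPM or more of Notch1 were a mixed set by other genes. Meis1, a stem cell transcription factor, had a lowest, median and highest value of 32.8, 171 and 654 CPM in them, 169, 585 and 1037 CPM in the other 11 HSC-like cells, and 0, 0.0803 and 102 CPM in the erythroid-like cells. Klf1, an erythroid marker, ran from 0 to 1160 CPM (median 141) in the 7 and from 0 to 701 CPM (median 28.1) in the other 11. Car1, an early erythroid carbonic anhydrase, ran from 10.4 to 6366 CPM (median 889) in the 7 and from 11.3 to 6835 CPM (median 128) in the other 11. Cd34, another HSC marker, ran from 0.506 to 1346 CPM (median 798) in the 7. In the other 11 it ran from 0 to 1165 CPM (median 262). Erythroid-like cells ran from 402 to 1648 CPM for Klf1, 220 to 11825 CPM for Car1 and 0 to 0.645 CPM for Cd34. The highest Klf1 and Car1 and the lowest Cd34 of both HSC-like sets lay within these ranges. Against the other 11, the median of the 7 was thus lower for Meis1 and higher for Klf1, Car1 and Cd34. The ranges of the 7 and of the other 11 overlapped for each of these genes. Cells with a Notch1 read had a median of 2164991 total reads and cells without one had 2187579.

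Notch2, the second receptor (chromosome 3, 98013527 to 98150361, plus strand), was found in 45 cells (91.8%, interval 80.4 to 97.7) and reached 10 CPM in 37. Its lowest, median and highest values were 0, 43.3 and 197 CPM in HSC-like cells and 0, 33.7 and 138 CPM in erythroid-like cells. The classes overlapped over nearly the whole range, with reads in 17 of 18 and 27 of 29 cells and means of 61.8 ± 60.5 and 40.7 ± 37.5 CPM, which is 1.52-fold. The highest level was in cell 13 and the next, 168.8 CPM, in cell 47. Without cells 9, 13, 23 and 34, Notch2 was found in 93.3% of 45 cells. The 4 cells without a read of Notch2, cells 3, 9, 22 and 44, had a median of 127010 total reads and no read of Notch1 either, so all 12 Notch1 cells also carried Notch2. Notch4 had a read in 6 cells, all erythroid-like (0 of 18 and 6 of 29), at 2.46 CPM on average. Of the 6 cells, 2 reached 10 CPM and 2 had only 1 to 4 reads. The count of 0 of 18 allows up to 16.7%, or 18.5% by the exact interval. Erythroid-like cells were also the deeper class, and the share of all genes with reads in only 1 class was not counted. Notch3 had a read in 0 of 49 cells.

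Adam10, the protease of the first cut (chromosome 9, 70678997 to 70780229, plus strand), was the member found most often, in 48 of 49 cells (98.0%, interval 89.1 to 99.9). Its lowest, median and highest values were 1.20, 117 and 771 CPM in HSC-like cells and 4.48, 105 and 306 CPM in erythroid-like cells. The medians were close and the highest values, in cell 26 and cell 40, differed more, with means of 192 ± 222 and 123 ± 80.7 CPM. The 1 cell without a read was cell 9, the shallowest.

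Rbpj, which binds DNA for the pathway (chromosome 5, 53466152 to 53657362, plus strand), was found in 36 cells (73.5%, interval 58.9 to 85.1). Its lowest, median and highest values were 0, 12.9 and 201 CPM in HSC-like cells and 0, 37.6 and 308 CPM in erythroid-like cells, and the means were 51.2 ± 68.2 and 47.5 ± 60.5 CPM. The classes overlapped over most of the range. Cells with an Rbpj read had a median of 2483999 total reads and cells without had 835415, and the part of depth in its absence was not tested. Maml1, the coactivator (chromosome 11, 50255634 to 50292311, minus strand), had a read in 17 cells (34.7%, interval 21.7 to 49.6), 4 of 18 HSC-like and 12 of 29 erythroid-like, and reached 10 CPM in 9. A single HSC-like cell, cell 16 with 310 CPM, held most of the HSC-like Maml1, and the means of 18.1 ± 72.8 and 13.003 ± 31.9 CPM rest on few cells.

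Target genes were rare. Hes1, a transcriptional repressor (chromosome 16, 30064384 to 30067796, plus strand), had reads in 3 cells (6.12%, interval 1.28 to 16.9): cell 34 at 36.4 CPM (22 reads), cell 4 at 4.32 CPM (25 reads) and cell 20 at 2.86 CPM (5 reads). The highest was thus in the cell with neutrophil and monocyte genes, and 1 HSC-like and 1 erythroid-like cell made up the rest. Without cells 9, 13, 23 and 34 the share was 4.44%. Dtx1, which encodes the ubiquitin ligase Deltex 1 (chromosome 5, 120680202 to 120711927, minus strand), had 9 reads in cell 52 (13.4 CPM) and none elsewhere. The Notch targets Hes5, Hey1, Hey2, Heyl and Ptcra had a read in 0 of 49 cells.

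Nrarp, which encodes a small ankyrin-repeat inhibitor of the Notch complex that Notch itself induces, was the target of the 3 found most often (chromosome 2, 25180758 to 25183339, plus strand). Of the 49 cells, 12 had an Nrarp read (24.5%, interval 13.3 to 38.9), of which 7 reached 10 CPM: 199.1 CPM in cell 52, 163 CPM in cell 7, 103 CPM in cell 40, 53.9 CPM in cell 47, 38.5 CPM in cell 3, 36.8 CPM in cell 46 and 25.4 CPM in cell 2. Of these 7, cells 40 and 46 were erythroid-like and the others HSC-like, so both classes held cells with and without it. By class it was found in 7 of 18 HSC-like (38.9%, 17.3 to 64.3) and 5 of 29 erythroid-like cells (17.2%, 5.85 to 35.8), at 26.8 ± 58.5 and 5.20 ± 20.1 CPM. Cells with a read were shallower (median 923709 total reads) than cells without (2411239), and Nrarp CPM had a Spearman correlation of -0.32 with total reads over the 49 cells. The antisense gene Gm38287 overlaps 2051 bases of the single 2582-base Nrarp exon and was not analysed here, so without strand some of these reads could be its own. Genes on the opposite strand also overlap exons of Notch1 (0610009E02Rik by 1068 bases, Gm13568 by 414 bases) and Maml1 (Gm26542 by 135 bases), and Gm42820 shares 541 bases on the strand of Notch2, with the same limit.

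Among the 9 members, 6 averaged at least 5 CPM over the kept cells, and of these Notch1 and Nrarp were at least 2-fold higher in mean CPM in HSC-like than in erythroid-like cells, while no member was 2-fold lower. Over the 9874 genes with such a mean, 23.4% were at least 2-fold higher and 14.7% at least 2-fold lower. A gene that is low overall can pass the filter through the class where it is high, so nothing further is read from the count.

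Per kilobase of the longest annotated transcript, mean levels ran in the order Adam10 (31.2 CPM per kb), Rbpj (8.55), Nrarp (5.01), Notch2 (4.48), Maml1 (2.83), Notch1 (2.65), Hes1 (0.606), Dtx1 (0.0676) and Jag2 (0.00801). The SD over cells was as large as the mean or larger for each of them, from 33.2 CPM per kb for Adam10 to 0.0561 for Jag2. That SD shows how cells vary and not the error of a mean, and differences between neighbours in this order were not tested. With the mean length of all annotated transcripts, Notch1 came second instead of sixth, its 11 annotated transcripts averaging 1519 bases and the longest having 9488.

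Whether the targets follow Notch1 was described by the Spearman correlation of CPM over the 49 cells, which share 1 source and differ widely in depth. It was 0.27 for Dtx1, 0.17 for Nrarp and 0.04 for Hes1, so 0 of the 3 targets reached 0.3, which 2.28% of 9157 genes did (those with a read in at least 10 cells and a mean of at least 5 CPM). Dtx1 rests on 1 cell and Hes1 on 3. With cells thinned to 500000 reads (44 cells), Nrarp stood at 0.37 and Dtx1 at 0.32, and 2.89% of genes reached 0.3. In the same 44 cells without thinning Nrarp stood at 0.26, and within the 18 HSC-like cells it stood at 0.08, where 12.1% of genes reached 0.3. The value for Nrarp thus moved with thinning and with the cells taken, and a weak correlation in counts this sparse is no finding.

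The pattern behind these values can be read cell by cell. Of the 7 cells at 10 CPM or more of Notch1, cells 2, 47 and 52 also reached 10 CPM of Nrarp, against 4 of the other 42 cells. The 4 were cells 3, 7, 40 and 46, and 3 of them had no Notch1 read at all. Among HSC-like cells alone, Nrarp reached 10 CPM in 3 of the 7 and in 2 of the other 11. Cells 51 and 26, the 2 highest in Notch1, had no Nrarp read, and cell 52, the highest in Nrarp and the only cell with Dtx1, stood at 49.02 CPM of Notch1. Hes1 had no read in any of the 7. Reads of these targets were thus found in cells without Notch1 reads, and high Notch1 in cells without reads of these targets.

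**Figure D2:**
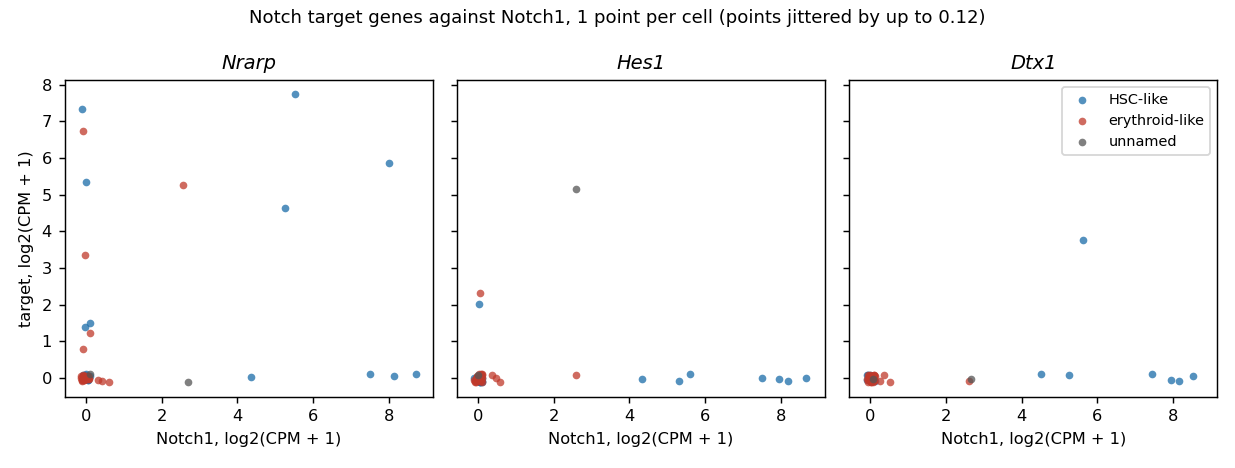
Each point is 1 of 49 cells, with Notch1 on the x axis and Nrarp, Hes1 or Dtx1 on the y axis as log2(CPM + 1), coloured by class and jittered by up to 0.12. Most cells lie on an axis, 3 HSC-like cells carry both Notch1 and Nrarp above 10 CPM, and Hes1 is absent from the 7 cells high in Notch1.

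Other members were set beside Notch1 in the same way. The correlation was 0.14 for Notch2, 0.10 for Rbpj, -0.03 for Adam10 and -0.13 for Maml1, against a median of -0.02 over all genes and a central 95% from -0.30 to 0.30. Ranked by it, Nrarp was number 1141 of 9157 genes, Notch2 number 1581, Rbpj number 2193, Adam10 number 4828 and Maml1 number 6903. Rbpj reached 10 CPM in 5 of the 7 Notch1 cells and 25 of the other 42, and Maml1 in 0 of the 7 and 9 of the 42. The 5 genes most like Notch1 were ENSMUSG00000073788 (0.49), to which GENCODE M21 gave no symbol, Xrcc4 (0.49), Bnip3 (0.48), Gimap1 (0.47) and Stap1 (0.46), each over 49 cells. The 5 most like Hes1, which rest on its 3 cells, were Dusp5 (0.51), Slc8b1 (0.50), Pik3cb (0.47), Arl16 (0.45) and Cebpd (0.42). Among members Maml1 was nearest to Hes1 (0.39, number 14 of 9158 genes), as all 3 Hes1 cells had a Maml1 read.

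**Figure D3:**
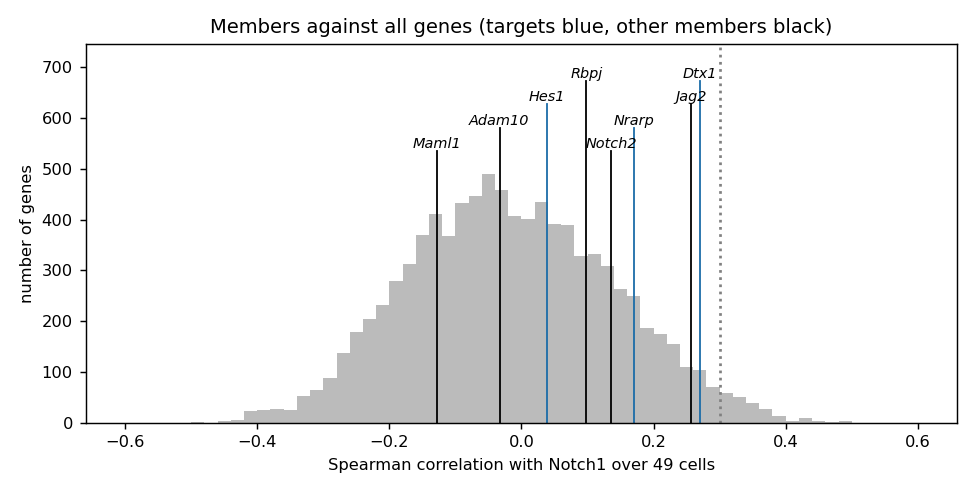
The histogram counts 9157 genes by their Spearman correlation with Notch1 over 49 cells, and vertical lines mark the 3 targets in blue and the other members in black. Every member lies below 0.3 (dotted line), with Dtx1 and Jag2, each found in 1 cell, nearest to it.

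Joint detection was counted for each receptor with the protease and Rbpj. All 12 Notch1 cells also had Notch2 reads, so the count for Notch2 could not be the smaller. Reads of Notch2, Adam10 and Rbpj were found together in 34 cells (69.4%, interval 54.6 to 81.7), 12 of 18 HSC-like and 22 of 29 erythroid-like. Reads of Notch1, Adam10 and Rbpj were found together in 10 cells (20.4%, 10.2 to 34.3), 6 HSC-like and 4 erythroid-like. With Maml1 as well, the counts were 12 cells (24.5%) for Notch2 and 2 cells (4.08%) for Notch1. Nrarp had a read in 7 of the 34 and in 3 of the 10. Nrarp and Notch2 had a correlation of -0.25, where the central 95% of genes ran from -0.21 to 0.34 (median 0.06) with Notch2. With total reads the correlation was -0.32 for Nrarp and 0.21 for Notch2, and the part of depth was not tested. Cells 3 and 44, which are 2 of the 4 cells with neither receptor, had Nrarp reads.

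Beyond the members, the pathway was described by a list of 68 genes in 9 roles. At least 50% of cells carried a read for 29 of them and no cell did for 12. That mark was met by 24.4% of all 28786 genes and by 46.3% of the 15134 genes with a read. The median gene of the list was found in 44.9% of cells. The median was 2.04% over all 28786 genes and 44.9% over the 15134, a set that, unlike the list, leaves out genes without a read. Cleavage genes (8 of 10 in at least 50% of cells) and corepressors (8 of 9) were the most widely found, led by Adam10 and by Ncor1 (48 cells, 190 CPM on average). Coactivators and the nuclear complex followed (4 of 8, led by Snw1 in 46 cells), then receptor turnover (4 of 9, led by the ubiquitin ligase gene Nedd4 in 48 cells), glycosylation (2 of 5, led by Rfng in 31 cells), receptors (1 of 4, Notch2), ligand endocytosis (1 of 4, Mib1 in 39 cells), targets (1 of 12) and ligands (0 of 7).

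The 1 widespread target was Myc, which Notch and many other inputs regulate. It was found in 48 cells at 664 CPM on average, with means of 868 ± 550 CPM over HSC-like cells and 584 ± 239 CPM over erythroid-like cells, and its correlation with Notch1 was 0.03. Gata3, a T lineage and stem cell factor, was found in 9 cells and shared 1 of them, cell 51, with Notch1. Cell 51 was the highest of the 49 cells for both, at 382 CPM of Gata3 and 395 CPM of Notch1. It was also the highest cell for Adam17, Ep300, Kat2b, Kdm5a and Pofut1 of the pathway list. Il2ra, the interleukin 2 receptor alpha chain, was found in 11 cells but never at 10 CPM, and Tcf7, an early T lineage target, had a read in 2 cells, neither of them with Notch1.

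The fringe genes, whose enzymes add sugars to Notch receptors and tune their choice of ligand, were described after their values were seen. Of the 9874 genes averaging 5 CPM or more, 23.4% were at least 2-fold higher in HSC-like cells and 14.7% at least 2-fold lower, so a difference in either direction is common. Mfng was found in 66.7% of HSC-like and 41.4% of erythroid-like cells, at 210 ± 235 and 25.2 ± 59.0 CPM. Rfng was found in 33.3% of HSC-like and 86.2% of erythroid-like cells, at 25.7 ± 49.96 and 78.0 ± 75.8 CPM. With every cell thinned to 85519 reads, the shares were 61.1% and 31.03% for Mfng and 27.8% and 86.2% for Rfng. Lfng was low in both, at 2.97 and 2.60 CPM. Mfng reached 10 CPM in 6 of the 7 cells high in Notch1, in 5 of the other 11 HSC-like cells and in 9 of 29 erythroid-like cells, and its correlation with Notch1 was 0.29 (number 262 of 9157 genes).

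**Figure D4:**
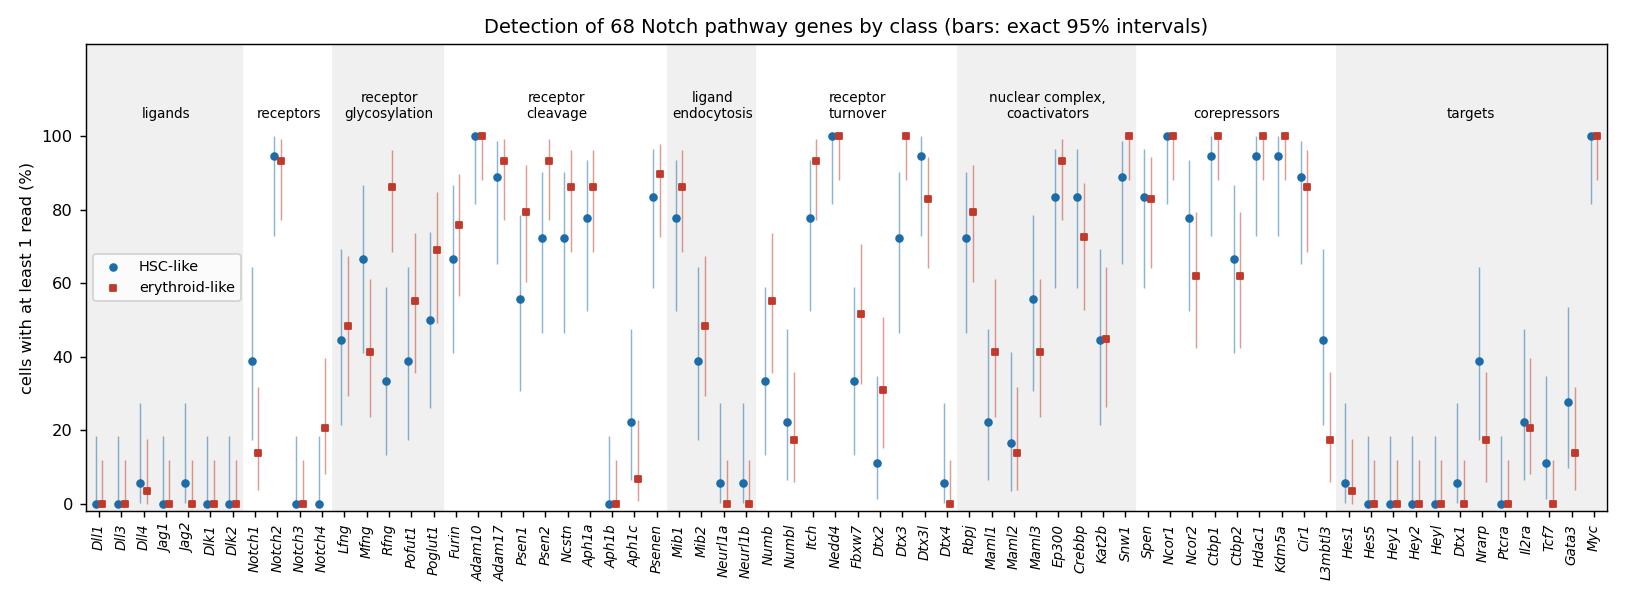
For 68 pathway genes grouped by role, points give the percent of HSC-like (circles) and erythroid-like cells (squares) with at least 1 read, and thin bars the exact 95% intervals. Ligands and most targets lie near 0, most cleavage genes (not Aph1b and Aph1c) and most corepressors lie high in both classes, and Notch1 (38.9% and 13.8%), Mfng (66.7% and 41.4%) and Rfng (33.3% and 86.2%) differ between the classes.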

How the data were processed

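The authors deposited expected counts (estimated counts) per gene for 52 single-cell libraries; 4.23% of the values were not whole. Per the submitters' processing notes, Trim Galore 0.5.0, Salmon 0.03.1 and GRCm38 were used; how transcripts were summed to genes and the strand setting were not given in the sources used here, and near-identical or overlapping genes are uncertain in their split. Counts were rounded and scaled to CPM. Symbols and loci came from GENCODE M21 (GRCm38), which named 96.3% of identifiers.

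Of the 52 cells 49 were kept. Genes averaging 5 CPM or more with reads in 10 or more cells were ranked by their relative variation. This was the squared ratio of SD to mean in CPM, on a log10 scale, above a lowess trend (fraction 0.3) on mean CPM. The top 1000, none of them among the 68 pathway genes, were taken as log2(CPM + 1). They were reduced to 10 principal components for Ward clustering. Between 2 and 6 clusters were tried, and 4 had the highest mean silhouette (0.380). Clusters of 5 or more cells were named by listed markers at least 1 log2 unit higher. Doublets were not called. Shares carry exact Clopper-Pearson 95% intervals. A count of 0 of n is given as up to 3 counts, a tighter limit than the exact interval, which is given beside it. Every member is named; of the pathway list, the most widespread gene of each role and all receptors, ligands and targets, plus the 5 genes most like Notch1 and Hes1; the fringe genes were added after their values were seen. The members and lists were chosen with earlier results of these data known. Statistics were tested on simulated data. Tools were Python 3.11.15, scipy 1.17.1, scikit-learn 1.9.0 and edgeR 4.0.16 (TMM alternative).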

Additional observations from a re-analysis of the deposited data

Results flagged for a closer look

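Reads of members appeared in cells that the cell filter left out and that the comparisons of the report do not use. The cells entered only the alternative with all 52 cells. Notch2 had 107 reads in cell 5, which had 28.3% mitochondrial reads, and 6 reads in cell 10, and Rbpj had 5 reads in cell 5. Each exceeds 3 reads, but the limit of 3 counts used in the report is for cells and not for reads within a cell. The labels name no control cells for comparison.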

How the results depend on the processing

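The count of 3 members found in at least 50% of cells was 3 under every alternative run for it. The difference in Notch1 share, HSC-like minus erythroid-like, was 25.1 percentage points. It was 35.4 with cells thinned to 85519 reads and 38.9 both at 10 CPM or more and at 5 reads or more, and stayed between 18.1 (k-means clusters) and 30.1 in the others. The number of targets at a correlation of 0.3 with Notch1 was 0, and 2 with cells thinned to 500000 reads. The number of members at 2-fold or more in HSC-like cells was 2. It was 3 with cells thinned to 500000 reads and with k-means clusters, where Maml1 joined, and 4 with no filter on mean CPM, where Dtx1 and Jag2, found in 1 cell each, came in. By mean transcript length Notch1 ranked 2 among members instead of 6. The correlation of Notch1 and Nrarp ran from 0.14 (cells whose title code starts with Y) to 0.37. K-means moved 5 cells (2, 3, 9, 13 and 38) to another class, and 2 of the 7 Notch1 cells, 2 and 38, were among them, so that high Notch1 was no longer confined to HSC-like cells. The values by k-means class and the thinned fringe genes were added after the data were seen. No paired analysis was possible because the labels give 1 group. Depth limits the low members most: Jag2 had no read after thinning to 85519 reads.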
